A study of Mus musculus with 24 samples.

Results

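The genes described here are 32 lysosomal genes: soluble hydrolases, lipid handling proteins, membrane proteins of the lysosome and a pair of regulators. They were found by their symbols in the deposited expression table, where all 32 were listed among 18723 genes, on 16 chromosomes and with no member overlapping another. The tumours grew from Lewis Lung Cancer, a mouse lung adenocarcinoma cell line, in WT mice, and each of the 3 groups held 8 tumours. Vehicle tumours received vehicle. Dual tumours received anti-PD-1, an antibody that blocks an inhibitory T cell receptor, and poly I:C, which mimics viral double-stranded RNA. The antibody was given i.p. at 100 ug per dose on days 7, 10 and 14, and poly I:C was given i.t. at 50 ug per dose on days 11 and 15. Triple tumours received both of these and C5aR1 blockade, taken to be the PMX53 of the treatment protocol, s.c. at 1 mg/kg daily, starting on day 6. The age, sex and strain of the mice are not given in the sources used here. All 3 groups derive from a single tumour line, so none of the comparisons spans several lines.

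Lysosomes are acidic organelles in which proteins, sugar chains and lipids taken up by the cell or delivered by autophagy are broken down. Most soluble enzymes reach them through mannose 6-phosphate receptors, and highly glycosylated proteins such as Lamp1 and Lamp2 line their membrane. The transcription factor TFEB raises many lysosomal genes together by binding a palindromic promoter element called CLEAR. Macrophages are rich in lysosomes, so in a tumour these transcripts can come from cancer cells and from infiltrating cells.

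Libraries held between 14438318 and 19254090 gene reads, and the least abundant value of any member in any tumour rested on 85 reads, the most abundant on 88889. Levels are given as CPM, counts scaled to the size of each library, and differences as log2 differences with the standard error (SE) of a limma fit over all 24 tumours. This fit gives each gene 1 spread shared by the 3 groups, also where the groups differ in spread. A gene was called at an adjusted p under 0.05, adjusted over all 18723 genes. Tumours are named as in the labels, where C_, D_ and T_ stand for vehicle, dual and triple. Each carries its own number. The S numbers that end the sample titles run in consecutive blocks, 1 block to a group; no label says what they mark, and whatever follows them cannot be told apart from treatment. Nothing beyond the tumour number states that tumours came from separate animals, so p-values judge differences of group means against the spread among these tumours. Of 10 lung adenocarcinoma or epithelial markers 8 were listed, and together they took a median of 0.00580% of reads in vehicle tumours. Epcam was near 0, at a vehicle median of 0.122 CPM, while Krt18 was at 41.98 CPM. Skeletal muscle markers took a median of 0.0391% of reads in vehicle, 0.0557% in dual and 0.140% in triple tumours. Triple tumours T_352, T_353, T_354, T_355 and T_362 had the 5 highest muscle shares of all, and results with and without these 5 are given below.

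Because TFEB is itself a member, promoters were searched for the letters of its element. RefSeq promoter windows, running from 250 bases before to 50 bases after the start site (build GRCm38.p6), were at hand for 27 of the 32 members. Some genes have more than 1 window, with 31 windows for these 27 members, and a gene was counted if any of its windows matched. The CLEAR core TCACGTGA was found in 4 of these 27 members (14.8%), against 242 of 12419 genes of the table with a window (1.95%). By window this was 4 of 31 (12.9%) against 257 of 15777 (1.63%). The shorter E-box core CACGTG, which every CLEAR core contains, was found in 8 of 27 (29.6%) against 1355 of 12419 (10.9%). Both strings read the same on either strand, and a match describes letters only. Since TFEB raises many lysosomal genes through CLEAR, a higher share among lysosomal genes could be foreseen. The shares are therefore no result about these tumours. Another window of Ctsa (chr2:164832622-164832921) held neither string. Shown first are 48-base stretches around the core in Ctsa (chr2:164833744-164833791, plus strand), Ctsd (chr7:142387895-142387942, minus strand) and Mcoln1 (chr8:3500457-3500504, plus strand), with the CLEAR cores in capitals.
Ctsa: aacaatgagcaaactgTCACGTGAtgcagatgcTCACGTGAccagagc
Ctsd: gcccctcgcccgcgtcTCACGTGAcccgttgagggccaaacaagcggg
Mcoln1: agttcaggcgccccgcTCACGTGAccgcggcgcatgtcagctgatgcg

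Whole windows are shown for 3 members whose levels are contrasted below: Gla, the member furthest above vehicle in dual tumours, Scarb2, the member furthest below, and Lamp1, which was called in no comparison. Gla (chrX:134600956-134601255, minus strand) held 2 CLEAR cores, in capitals. Lamp1 (chr8:13158911-13159210, plus strand) held 4 E-box cores, in capitals, and no CLEAR core. Scarb2 (chr5:92505608-92505907, minus strand) held neither in this window. Of the other members with a CLEAR core, Mcoln1 fell in dual against vehicle, and Ctsa and Ctsd were not called. Npc2, Ctsz and Cd63, which rose there, had no CLEAR core in their windows. Any relation between core and direction was not tested.
Gla: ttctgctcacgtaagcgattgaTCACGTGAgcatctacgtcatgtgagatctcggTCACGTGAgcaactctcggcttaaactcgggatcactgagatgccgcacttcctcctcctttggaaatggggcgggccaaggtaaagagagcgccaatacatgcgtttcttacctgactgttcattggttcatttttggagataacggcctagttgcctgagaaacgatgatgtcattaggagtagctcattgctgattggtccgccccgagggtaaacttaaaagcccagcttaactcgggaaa
Lamp1: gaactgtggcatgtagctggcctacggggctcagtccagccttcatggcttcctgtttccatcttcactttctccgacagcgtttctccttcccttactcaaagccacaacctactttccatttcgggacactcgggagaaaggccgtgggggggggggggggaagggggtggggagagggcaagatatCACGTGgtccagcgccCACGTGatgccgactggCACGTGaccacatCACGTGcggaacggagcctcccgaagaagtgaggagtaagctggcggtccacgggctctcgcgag
Scarb2: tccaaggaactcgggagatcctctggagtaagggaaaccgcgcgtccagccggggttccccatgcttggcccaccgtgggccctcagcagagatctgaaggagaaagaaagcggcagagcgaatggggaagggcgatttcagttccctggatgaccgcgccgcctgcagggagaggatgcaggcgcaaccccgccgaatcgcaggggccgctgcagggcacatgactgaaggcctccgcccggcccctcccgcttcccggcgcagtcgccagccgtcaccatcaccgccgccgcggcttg

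In vehicle tumours the level per length, in CPM per kb of exon, was highest for Psap at a median of 549.5. Lamp1 followed at 261.8, Ctsl at 251.1, Ctsb at 250 and Ctsz at 199.7 CPM per kb. The lowest was Tfeb at 1.95 CPM per kb, the only transcription factor of the set. In triple tumours Psap was again first, at 1268 CPM per kb, followed by Ctsb at 491.1 and Ctsz at 352.7. These per-length levels are a description, with no test between genes.

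Together the 32 genes took 1.05% to 1.21% of reads in vehicle tumours (median 1.10%). In dual tumours they took 1.06% to 1.29% (median 1.13%), and in triple tumours 1.07% to 2.28% (median 1.56%). The triple tumours thus began at the vehicle level and reached far above it, with tumour T_331 at the bottom and tumour T_352 at the top. Markers of macrophages, 16 genes, took a median of 0.311% of reads in vehicle, 0.214% in dual and 0.342% in triple tumours, where they ran from 0.188% in tumour T_331 to 0.774% in tumour T_352. Markers of neutrophils, 15 genes, took a median of 0.0151%, 0.0932% and 0.0645% in the same order. In bulk tumours a change in the number of cells of a type and a change in RNA per cell cannot be told apart. The part of these cell types in the results below was not tested.

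**Figure D1:**
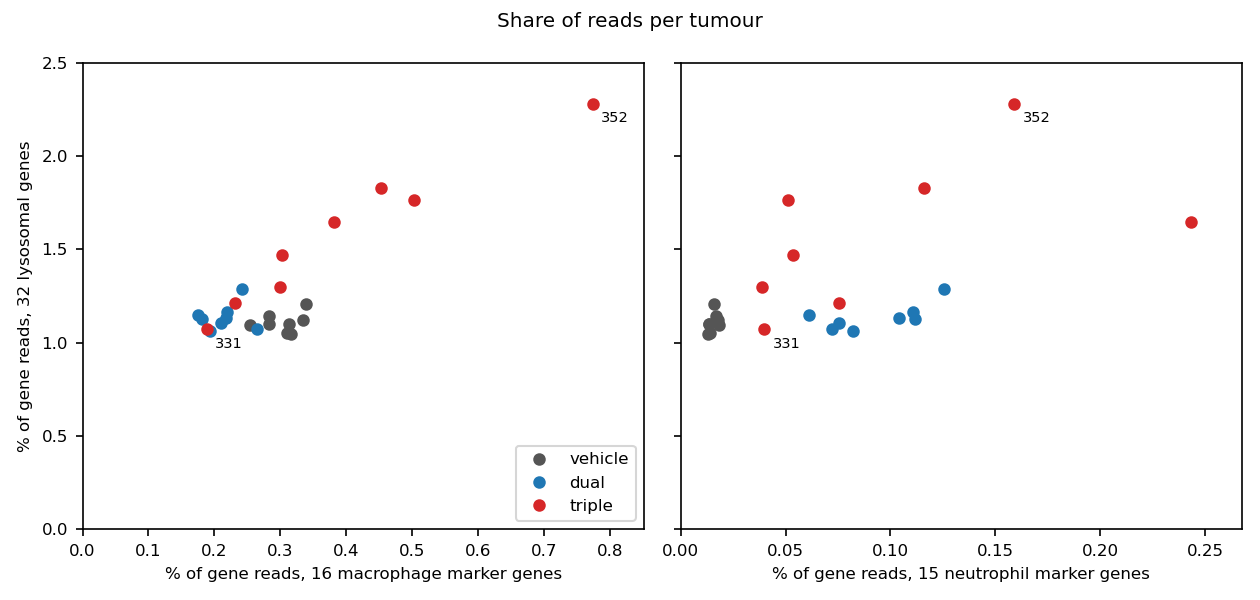
Share of gene reads taken by the 32 lysosomal genes (y axis, %) against the share taken by 16 macrophage markers (left, %) and 15 neutrophil markers (right, %), 1 point per tumour, 8 per group. Triple tumours spread from 1.07% (tumour T_331) to 2.28% (tumour T_352) on the y axis, while vehicle and dual tumours lie between 1.05% and 1.29%.

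Dual treatment was compared with vehicle to show what poly I:C with anti-PD-1 did to these genes. Members moved in both directions: Ctsb, Ctsz, Gla, Npc2 and Cd63 rose, and 11 fell, among them 5 of the 9 sugar-chain hydrolases. The 5 called higher are 5 of 32, against 15% of all genes called higher, and the 11 called lower stand against 15.8% of all genes called lower. The other 16 were not called. The median log2 difference of the 32 was -0.13, against -0.03 over all genes. Under quantile normalization, 3 members were called higher and 14 lower, against 12.7% and 16.1% of all genes.

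Triple treatment was compared with the same vehicle tumours. Here 13 members rose, 7 of them proteases, against 23% of all genes called higher. Only Scarb2 and Asah1 fell, against 22.8% of all genes called lower, and 17 members were not called. The median log2 difference was 0.21, against -0.02 over all genes. With a skeletal muscle score as covariate the counts were 8 higher and 1 lower, against 10.0% and 9.88% of all genes. Without the 5 muscle-rich tumours they were 8 higher and 5 lower, against 15.2% of all genes in each direction. The members' median turned to -0.02 and -0.09 under these settings, with 13 and 15 of 32 members above 0, against 25 with all tumours and no covariate. Under both settings the 8 were Ctsb, Ctsd, Ctsz, Gla, Psap, Npc1, Npc2 and Grn. Since both comparisons use the same vehicle tumours, they are not independent.

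Triple tumours were compared with dual tumours to show what adding C5aR1 blockade changed, which is also the test of whether the other comparisons differ. In this comparison 19 members rose, against 11.4% of all genes called higher, and only Cd63 fell, against 9.97% of all genes called lower. The median log2 difference was 0.47, against -0.004 over all genes, and 29 of 32 members were above 0. With the muscle score as covariate limma called 0 members in either direction at an adjusted p under 0.05, with 15 higher and 1 lower at an unadjusted p under 0.05. The median was then 0.27, with 29 of 32 members above 0. Lipa, for example, went from 0.59 to 0.46 and Cd63 from -0.53 to -0.43. Without the 5 muscle-rich tumours, which leaves 3 triple tumours, limma also called 0 members, with 8 higher and 1 lower at an unadjusted p under 0.05. The median was then 0.13, with 25 of 32 members above 0. Over all genes those settings left 5 higher and 3 lower, and 2 higher and 0 lower.

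**Figure D2:**
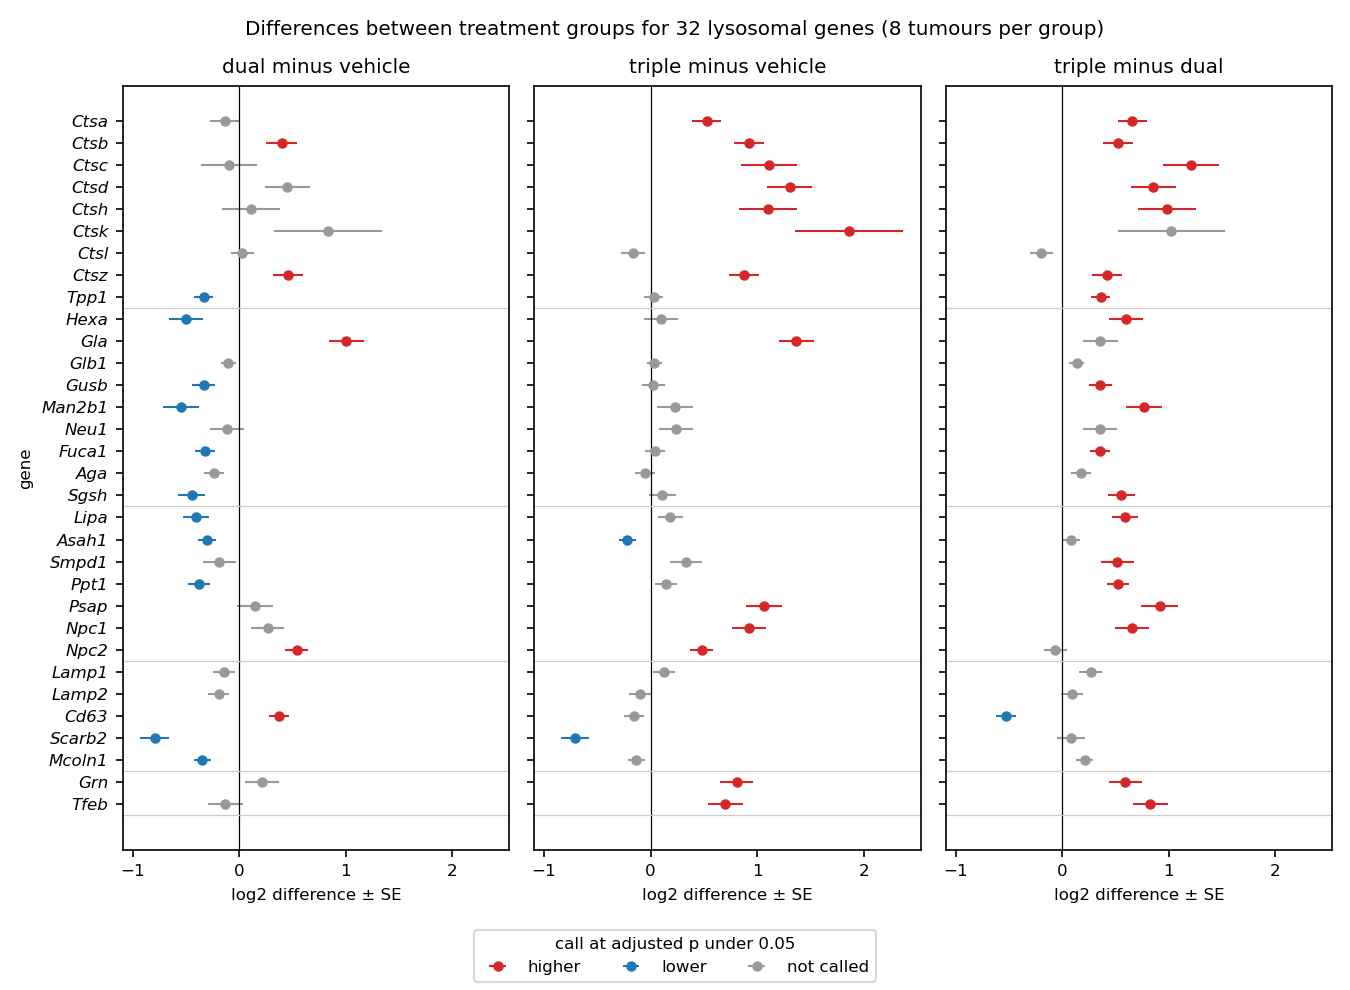
Log2 difference ± SE (x axis) of each member (y axis, ordered by role) in the 3 comparisons, 8 tumours per group, coloured by call. Among called members, Gla at 1.01 and Scarb2 at -0.79 lie furthest from 0 for dual minus vehicle. Ctsk, not called, lies at 0.84 (SE 0.51). For triple minus dual, 29 of 32 members lie right of 0.

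**Figure D3:**
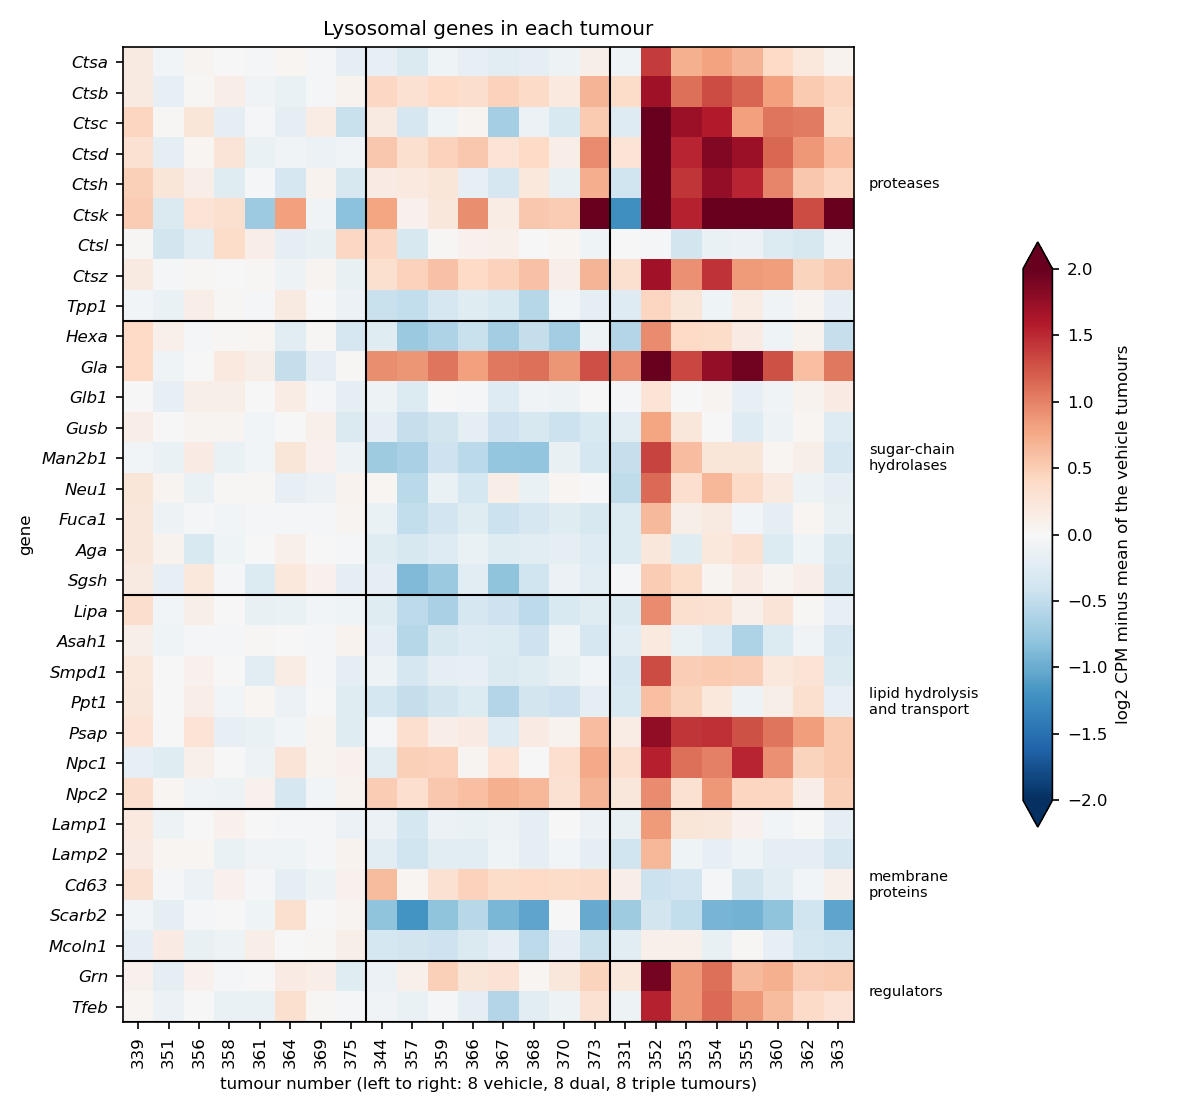
Log2 CPM of each member (rows, by role) in each tumour (columns, by tumour number) minus the mean of the 8 vehicle tumours; the colour scale ends at 2 and -2 and larger values take the end colour. Tumour T_352 is the darkest column, and Scarb2 is blue in nearly all treated tumours.

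Among the 9 proteases, 2 rose and 1 fell in dual against vehicle, and 7 rose in triple against vehicle and against dual. Ctsb, a cysteine protease, had a lowest, median and highest value of 1357, 1513 and 1730 CPM in vehicle, 1752, 1996 and 2433 CPM in dual, and 1964, 2972 and 4952 CPM in triple tumours. Neither treated group overlapped vehicle, and triple overlapped dual. Its log2 difference was 0.40 (SE 0.14, adjusted p = 0.0352) for dual minus vehicle, 0.92 (SE 0.14, adjusted p = 2.13e-05) for triple minus vehicle and 0.53 (SE 0.14, adjusted p = 0.015) for triple minus dual. The first of these was lost on leaving out vehicle tumour C_351, C_361, C_364 or C_369 or dual tumour D_359, D_367, D_368 or D_373, with adjusted p between 0.05 and 0.0734, and with the muscle covariate (0.31, adjusted p = 0.080).

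Ctsd, the main aspartic protease of lysosomes, was at 238.2, 259.6 and 335.8 CPM in vehicle (lowest, median, highest), 299.0, 368.6 and 523.0 CPM in dual and 328.2, 695.0 and 1516 CPM in triple tumours. All 8 dual tumours lay above the vehicle median, yet the difference of 0.45 (SE 0.21, adjusted p = 0.107) was not called. It was called under 4 of 13 other settings: tumour weights, only these groups fitted, the exact Wilcoxon test and without the 5 muscle-rich triple tumours (adjusted p from 0.00117 to 0.00581). It was also called without triple tumour T_352 (adjusted p = 0.0417), which enters the shared estimate of spread. It rose by 1.31 (SE 0.21, adjusted p = 3.6e-05) in triple against vehicle and by 0.85 (SE 0.21, adjusted p = 0.0102) against dual. Ctsc, which activates granule serine proteases, was at 229.1, 310.3 and 417.9 CPM in vehicle, 194.8, 290.2 and 447.8 CPM in dual and 259.3, 645.0 and 1861 CPM in triple tumours. Vehicle and dual covered the same range, and 7 of 8 triple tumours lay above the vehicle median. Ctsc rose by 1.11 (SE 0.26, adjusted p = 0.00142) in triple against vehicle and by 1.21 (SE 0.26, adjusted p = 0.0062) against dual, and with the muscle covariate the difference from vehicle was 0.43 and not called (adjusted p = 0.284).

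Ctsh, an aminopeptidase, was at 68.8, 87.5 and 120.7 CPM in vehicle, 68.2, 98.5 and 143.1 CPM in dual and 65.6, 201.6 and 516.7 CPM in triple tumours. The triple group held both the lowest and the highest value of the 24 tumours. Its rise was 1.10 (SE 0.27, adjusted p = 0.0021) against vehicle and 0.99 (SE 0.27, adjusted p = 0.016) against dual. With the muscle covariate the limma difference of Ctsh from vehicle was 0.38 and not called (adjusted p = 0.364). Ctsk, a collagen-degrading protease best known from osteoclasts, was at 6.83, 13.0 and 21.2 CPM in vehicle, 12.7, 17.3 and 133.0 CPM in dual and 5.15, 56.3 and 145.9 CPM in triple tumours. A single dual tumour, D_373, was far above the other 7. Ctsk rose by 1.86 (SE 0.51, adjusted p = 0.00444) in triple against vehicle, or 3.63-fold, but with the muscle covariate the difference was 1.02 and not called (adjusted p = 0.254). Against dual its difference of 1.03 was not called (adjusted p = 0.136), and it was called without dual tumour D_373 (1.40, adjusted p = 0.0293) or triple tumour T_331 (1.47, adjusted p = 0.00772), and with tumour weights (adjusted p = 0.0481). Fibroblast markers, 10 genes, took a median of 0.798% of reads in vehicle, 0.546% in dual and 0.863% in triple tumours, up to 1.22% in dual and 4.17% in triple tumours, and their part was not tested.

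Ctsz, a carboxypeptidase, rose by 0.46 (adjusted p = 0.0161) in dual and 0.88 (adjusted p = 3.53e-05) in triple against vehicle. Its rise of 0.42 in triple against dual (adjusted p = 0.0367) was lost without dual tumour D_344, D_366, D_367 or D_370 or triple tumour T_352, T_353, T_354 or T_355, with adjusted p between 0.0538 and 0.0785. Ctsa, which protects Glb1 and Neu1 in a complex, rose by 0.52 in triple against vehicle (adjusted p = 0.00341) and by 0.66 against dual (adjusted p = 0.00567). With the muscle covariate the limma difference of Ctsa from vehicle was 0.20 and not called (adjusted p = 0.38). Ctsl, another cysteine protease, stood apart from Ctsb: it was at 1318, 1630 and 2252 CPM in vehicle, 1353, 1735 and 2260 CPM in dual and 1315, 1552 and 1713 CPM in triple tumours. The 3 groups overlapped throughout, and Ctsl was called in no comparison, with log2 differences of 0.03, -0.16 and -0.20. Its share of the members' reads was a median of 14.6% in vehicle and 9.58% in triple tumours. Tpp1, a tripeptidyl peptidase, was at 135.9, 147.0 and 168.0 CPM in vehicle, 100.4, 118.8 and 142.8 CPM in dual and 124.3, 147.6 and 200.7 CPM in triple tumours. It fell by 0.33 in dual against vehicle (adjusted p = 0.00632), rose by 0.36 in triple against dual (adjusted p = 0.00997) and differed by 0.03 between triple and vehicle (adjusted p = 0.795).

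The 9 hydrolases of sugar chains had 1 rise and 5 falls in dual against vehicle, 1 rise in triple against vehicle, and 5 rises in triple against dual. The rise was Gla, alpha-galactosidase A, which removes terminal galactose from glycolipids and is the enzyme lacking in human Fabry disease. Gla (ENSMUSG00000031266.8, chromosome X, 133488898 to 133501874 on the minus strand of GRCm39) was at 19.5, 27.4 and 35.8 CPM in vehicle, 48.1, 54.1 and 66.5 CPM in dual and 41.01, 67.1 and 111.7 CPM in triple tumours. Every treated tumour lay above every vehicle tumour. It rose by 1.01 (SE 0.16, adjusted p = 5.95e-05) in dual, or 2.01-fold, and by 1.37 (SE 0.16, adjusted p = 1.08e-06) in triple against vehicle, or 2.58-fold. The difference of 0.36 between triple and dual was not called (adjusted p = 0.105), and was called without triple tumour T_331 (0.42, adjusted p = 0.0471) or T_362 (0.47, adjusted p = 0.0257).

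Man2b1, the acid alpha-mannosidase, moved the other way in dual tumours. It was at 126.8, 133.7 and 164.6 CPM in vehicle, 80.8, 92.4 and 125.6 CPM in dual and 100.7, 158.1 and 354.5 CPM in triple tumours. No dual tumour reached the lowest vehicle tumour, while triple tumours lay on both sides of the vehicle range. It fell by 0.55 (SE 0.17, adjusted p = 0.0165) in dual against vehicle and rose by 0.77 (SE 0.17, adjusted p = 0.00666) in triple against dual. Hexa, a subunit of the beta-hexosaminidase that degrades gangliosides, was at 136.9, 174.4 and 225.8 CPM in vehicle, 102.7, 118.3 and 160.8 CPM in dual and 113.9, 186.4 and 330.1 CPM in triple tumours. All 8 dual tumours lay below the vehicle median, with a fall of 0.50 (adjusted p = 0.0186), and the rise in triple against dual was 0.60 (adjusted p = 0.0135).

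Sgsh, a heparan sulfate sulfatase, was at 20.2, 24.8 and 28.3 CPM in vehicle, 13.3, 19.6 and 22.5 CPM in dual and 18.9, 26.1 and 34.7 CPM in triple tumours. It fell by 0.45 in dual (adjusted p = 0.00994) and rose by 0.56 in triple against dual (adjusted p = 0.00789). Fuca1, the alpha-fucosidase, was at 62.3, 65.4 and 78.5 CPM in vehicle, 47.8, 53.2 and 61.0 CPM in dual and 55.5, 66.3 and 104.2 CPM in triple tumours. Dual and vehicle did not overlap for Fuca1, which fell by 0.32 (adjusted p = 0.0119) and rose by 0.36 in triple against dual (adjusted p = 0.0132). Gusb, the beta-glucuronidase, was at 95.6, 118.4 and 127.5 CPM in vehicle, 84.1, 92.0 and 102.3 CPM in dual and 97.4, 111.8 and 200.4 CPM in triple tumours. Its fall of 0.33 in dual (adjusted p = 0.0226) was followed by a rise of 0.36 in triple against dual (adjusted p = 0.0245), which was lost without triple tumour T_353 (0.33, adjusted p = 0.0546). None of Man2b1, Hexa, Sgsh, Fuca1 and Gusb was called in triple against vehicle, where their log2 differences ran from 0.03 to 0.23. The pair of comparisons that share dual tumours are not independent, so the opposite signs are given side by side only. Glb1 (beta-galactosidase), Neu1 (sialidase) and Aga (which cleaves sugars from asparagine) were called in no comparison. For Aga this depended on the setting: its difference of -0.23 in dual (adjusted p = 0.058) was called lower under 7 of 13 other settings (adjusted p from 0.00683 to 0.0484), and without vehicle tumour C_356 (adjusted p = 0.027), triple tumour T_352 (adjusted p = 0.0399) or triple tumour T_355 (adjusted p = 0.0412). Without the 5 muscle-rich tumours it was also called lower in triple against vehicle (-0.28, adjusted p = 0.0188). Without triple tumour T_331, Neu1 was called higher in triple against vehicle (0.35, adjusted p = 0.0486) and against dual (0.46, adjusted p = 0.0157).

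**Figure D4:**
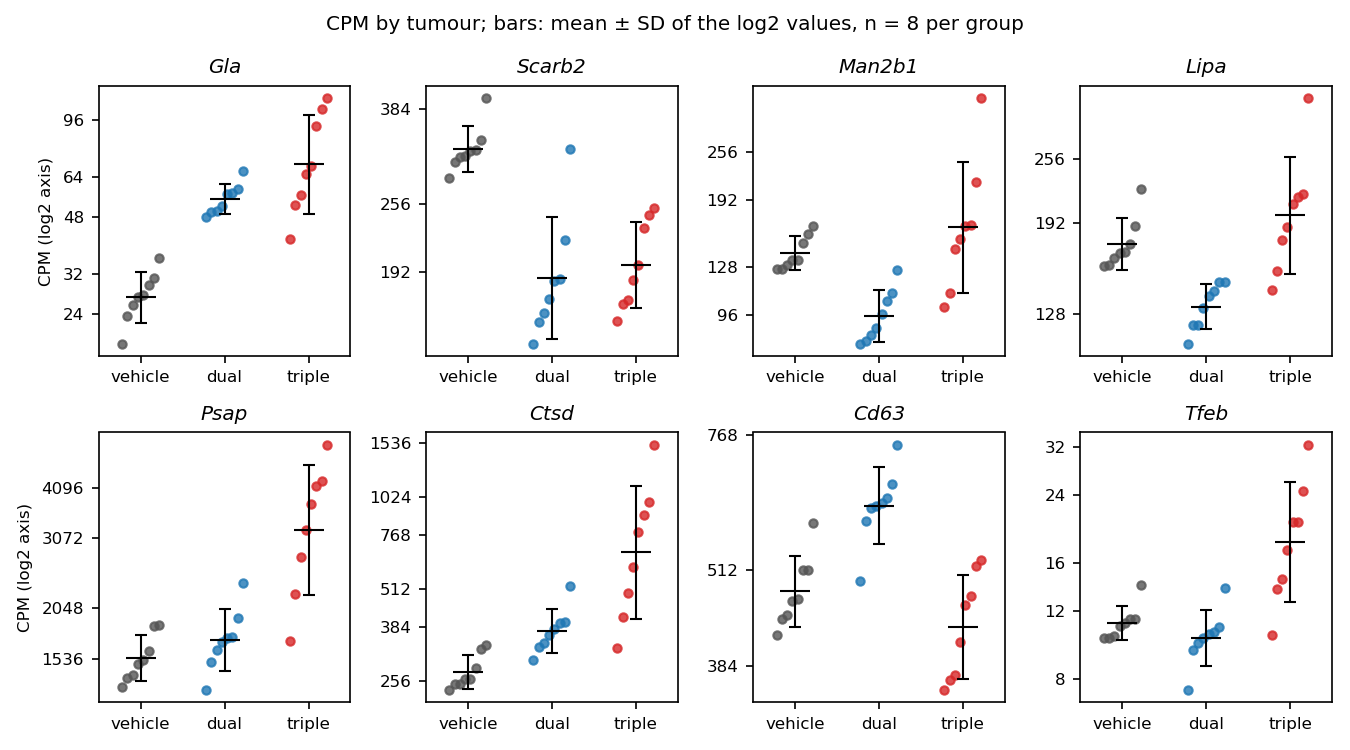
CPM on a log2 axis for 8 members, 1 point per tumour, with the mean ± SD of the log2 values (n = 8 per group). Gla in all treated tumours lies above all vehicle tumours, Scarb2 lies lower in dual and triple, and Man2b1 and Lipa dip in dual tumours and spread upwards in triple tumours.

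Of the 7 members that handle lipids, 1 rose and 3 fell in dual against vehicle, 3 rose and 1 fell in triple against vehicle, and 5 rose in triple against dual. Psap, the precursor of the saposins that present glycolipids to hydrolases, was at 1305, 1508 and 1862 CPM in vehicle, 1281, 1710 and 2374 CPM in dual and 1699, 3479 and 5246 CPM in triple tumours. Dual covered the vehicle range (0.15, adjusted p = 0.542), and all 8 triple tumours lay above the vehicle median. Psap rose by 1.06 (SE 0.17, adjusted p = 3.68e-05) in triple against vehicle and by 0.91 (SE 0.17, adjusted p = 0.00471) against dual. It made up a median of 15.1% of the members' reads in vehicle and 21.6% in triple tumours. Npc2, which binds cholesterol inside the lysosome, was at 498.8, 628.0 and 805.0 CPM in vehicle, 775.9, 935.9 and 1026 CPM in dual and 693.5, 847.5 and 1215 CPM in triple tumours. It rose by 0.54 (SE 0.11, adjusted p = 0.00054) in dual and by 0.48 (SE 0.11, adjusted p = 0.00106) in triple against vehicle. Its partner Npc1, the cholesterol exporter of the membrane, differed by 0.27 in dual (adjusted p = 0.212), rose by 0.93 in triple against vehicle (adjusted p = 6.95e-05) and by 0.66 against dual (adjusted p = 0.00945). All triple tumours lay above every vehicle tumour for Npc1.

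Lipa, the acid lipase of cholesteryl esters, was at 158.5, 168.5 and 224.1 CPM in vehicle, 112.0, 135.2 and 147.6 CPM in dual and 142.4, 198.7 and 335.5 CPM in triple tumours. No dual tumour reached a vehicle tumour, and the fall was 0.40 (SE 0.12, adjusted p = 0.0132). Against dual it rose by 0.59 (SE 0.12, adjusted p = 0.00534) in triple tumours. Ppt1, which removes palmitate from proteins, was at 95.8, 113.8 and 132.3 CPM in vehicle, 75.3, 87.6 and 98.9 CPM in dual and 92.0, 127.2 and 172.4 CPM in triple tumours. It fell by 0.38 in dual (adjusted p = 0.00691) and rose by 0.52 in triple against dual (adjusted p = 0.00516). Asah1, the acid ceramidase, fell by 0.30 in dual (adjusted p = 0.00741) and by 0.22 in triple against vehicle (adjusted p = 0.0362). The latter was lost without vehicle tumour C_339, C_361 or C_375 or triple tumour T_354, T_355, T_360 or T_363, with adjusted p between 0.0543 and 0.0894. With the muscle covariate the limma difference of Asah1 from vehicle was -0.21 and not called (adjusted p = 0.18). Smpd1, the acid sphingomyelinase, rose by 0.52 in triple against dual (adjusted p = 0.0215). Its difference of 0.33 from vehicle was not called (adjusted p = 0.0785), and was called without triple tumour T_331 (0.43, adjusted p = 0.0152) or T_363 (0.42, adjusted p = 0.0215) and with tumour weights (adjusted p = 0.047).

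The 5 membrane proteins had 1 rise and 2 falls in dual against vehicle, 1 fall in triple against vehicle and 1 fall in triple against dual. Scarb2, the receptor that carries glucocerebrosidase to lysosomes (chromosome 5, 92589173 to 92654692 on the minus strand of GRCm39), was at 285.7, 317.5 and 401.8 CPM in vehicle, 141.2, 177.9 and 323.0 CPM in dual and 155.6, 191.4 and 251.7 CPM in triple tumours. No triple tumour reached a vehicle tumour, whereas dual overlapped vehicle through its highest tumour, 370. Scarb2 fell by 0.79 (SE 0.13, adjusted p = 8.3e-05) in dual and by 0.71 (SE 0.13, adjusted p = 0.000157) in triple against vehicle. With the muscle covariate both falls kept their call (adjusted p = 0.00012 and 0.00454), as they did without the 5 muscle-rich tumours (adjusted p = 3.2e-05 and 0.000742).

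Cd63, a tetraspanin of late endosomes and exosomes, was at 421.6, 467.6 and 589.9 CPM in vehicle, 494.4, 623.7 and 745.3 CPM in dual and 356.8, 436.2 and 526.8 CPM in triple tumours. It rose by 0.37 (SE 0.09, adjusted p = 0.00373) in dual against vehicle and fell by 0.53 (SE 0.09, adjusted p = 0.00425) in triple against dual, with all 8 triple tumours below the dual median. Under quantile normalization the dual calls of Cd63 (0.21, adjusted p = 0.0782) and Ctsz (0.32, adjusted p = 0.0827) were lost, and Cd63 was called lower in triple against vehicle (-0.28, adjusted p = 0.0146). Cd63 took a median of 4.55% of the members' reads in vehicle, 5.55% in dual and 2.65% in triple tumours. Lamp1, the abundant membrane glycoprotein, was at 646.3, 700.2 and 803.8 CPM in vehicle, 551.3, 651.6 and 699.2 CPM in dual and 616.8, 725.7 and 1276 CPM in triple tumours. It was called in no comparison (log2 differences of -0.14, 0.13 and 0.27). Quantile normalization called it lower in dual against vehicle (-0.26, adjusted p = 0.0227), as did the exact Wilcoxon test (adjusted p = 0.0397), and higher in triple against dual (0.31, adjusted p = 0.0148). The latter was also called without triple tumour T_331 (0.31, adjusted p = 0.0268) or T_363 (0.31, adjusted p = 0.0305). Lamp2 likewise had no call, with differences of -0.19, -0.10 and 0.09. It was called lower in dual against vehicle under 5 of 13 other settings (adjusted p from 0.00577 to 0.0118), and in triple against vehicle with tumour weights and without the 5 muscle-rich tumours (adjusted p = 0.0196 and 0.00492). Without triple tumour T_352 it was called lower in dual (-0.19, adjusted p = 0.0137) and in triple (-0.21, adjusted p = 0.00855) against vehicle. Mcoln1, the calcium channel TRPML1, fell by 0.35 in dual against vehicle (adjusted p = 0.00193). Its difference of 0.21 between triple and dual (adjusted p = 0.0569) was called without dual tumour D_370 or triple tumour T_331, T_362 or T_363, with adjusted p between 0.0246 and 0.0479, and under 2 of 13 other settings. Its difference of -0.13 between triple and vehicle (adjusted p = 0.178) was called under 3 of 13 (adjusted p from 0.0303 to 0.0442).

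Both regulators rose in triple tumours. Tfeb, the transcription factor, was at 10.2, 11.1 and 14.0 CPM in vehicle, 7.47, 10.3 and 13.8 CPM in dual and 10.4, 18.8 and 32.4 CPM in triple tumours. Dual overlapped vehicle (-0.13, adjusted p = 0.59), and 7 of 8 triple tumours were above the vehicle median. Tfeb rose by 0.70 (SE 0.17, adjusted p = 0.00144) against vehicle and by 0.83 (SE 0.17, adjusted p = 0.00527) against dual, and with the muscle covariate the differences were 0.33 and 0.58 and neither was called (adjusted p = 0.222 and 0.126). Grn, progranulin, a secreted protein processed in lysosomes, was at 480.6, 586.9 and 637.4 CPM in vehicle, 527.6, 669.8 and 791.3 CPM in dual and 658.2, 913.2 and 2137 CPM in triple tumours. Every triple tumour exceeded every vehicle tumour, with a rise of 0.81 (SE 0.16, adjusted p = 0.000238), and the rise against dual was 0.59 (SE 0.16, adjusted p = 0.0133). Its difference of 0.21 in dual against vehicle (adjusted p = 0.316) was called with tumour weights and with only these groups fitted (adjusted p from 0.0465 to 0.048).

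The triple tumours were also the most unequal for these members. The SD of log2 values was largest in the triple group for 29 of 32 members. This count, and the counts of highest and lowest tumours that follow, were not made over all genes. They are therefore not shown to be particular to these members. For Ctsb the SDs were 0.12, 0.14 and 0.47 in vehicle, dual and triple tumours, yet the shared spread gave an SE of 0.14 in each comparison. Such an SE is wide for dual minus vehicle and narrow for the comparisons with triple tumours. Tumour T_352 was the highest triple tumour for 29 members and tumour T_331 the lowest for 20. Tumour T_352 also had the highest macrophage share, 0.774%, and the highest fibroblast share, 4.17%, of all 24 tumours, and a muscle share of 0.162%. Tumour T_331 had the lowest macrophage share of its group, 0.188%, and a muscle share of 0.0266%. Without tumour T_352 or any other single tumour, between 17 and 24 members were called higher in triple against dual. In the same fits between 1311 and 3598 of all genes were called higher.

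Macrophage markers moved in the same comparisons: of 16, 1 rose and 4 fell in dual against vehicle, 6 rose and 1 fell in triple against vehicle, and 10 rose in triple against dual. All genes called higher and lower were 15% and 15.8%, 23% and 22.8%, and 11.4% and 9.97% in the same order. The macrophage list's median difference from vehicle in triple tumours was 0.33, but -0.19 with the muscle covariate, where 3 rose and 2 fell, and -0.33 without the 5 muscle-rich tumours, where 4 rose and 7 fell. All genes called higher and lower in triple against vehicle were then 10.0% and 9.88% with the covariate, and 15.2% each without those tumours. Against dual limma called 0 of the 16 under either muscle setting, with 6 and 3 higher and 0 lower at an unadjusted p under 0.05. No share of all genes at that unadjusted p was counted. Csf1r, the macrophage growth factor receptor, had medians of 176.1, 98.5 and 226.4 CPM in vehicle, dual and triple tumours, and Adgre1 had medians of 80.4, 71.0 and 164.6 CPM. Of 15 neutrophil markers 14 rose in each treated group against vehicle, and of 20 skeletal muscle markers 19 rose in triple against vehicle and 10 against dual. The muscle score is made from these 20 genes. The part of these markers in the members' differences was not tested.

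Further genes of the pathway were counted from lists chosen by function, to be read against the shares of all genes just given for the same setting. In triple against dual, limma called 0 genes of each of these 6 lists with the muscle covariate and without the 5 muscle-rich tumours. The counts at an unadjusted p under 0.05 are given below, with no share of all genes to read them against. Of 34 other lysosomal enzymes and membrane proteins, 1 rose and 14 fell in dual against vehicle, 14 rose and 5 fell in triple against vehicle, and 20 rose and 0 fell in triple against dual (24 and 1 at an unadjusted p under 0.05). Their medians were -0.18, 0.12 and 0.40. In triple against vehicle the counts were 6 and 4 (median -0.03) with the muscle covariate and 6 and 5 (median -0.05) without the muscle-rich tumours. In triple against dual 19 rose and 0 fell, and 6 rose and 1 fell, at an unadjusted p under 0.05 under those settings. Ctso, a cysteine protease, fell by 0.98 in dual (adjusted p = 8.18e-06) and by 0.75 in triple against vehicle (adjusted p = 7.82e-05). Scpep1, a serine carboxypeptidase, rose by 0.33 in dual (adjusted p = 0.000287). Hyal1, a hyaluronidase, rose by 1.35 in triple against vehicle (adjusted p = 0.000243), and Ctss, a cysteine protease of antigen-presenting cells, rose by 1.116 in triple against dual (adjusted p = 0.00621).

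Of 18 subunits and accessory genes of the proton pump that acidifies lysosomes, 4 rose and 3 fell in dual against vehicle, 8 rose and 2 fell in triple against vehicle, and 7 rose in triple against dual. Their medians were -0.07, 0.19 and 0.25. In triple against vehicle the counts were 3 and 2 (median 0.05) with the muscle covariate and 3 and 3 (median -0.03) without the muscle-rich tumours, and in triple against dual 5 and 0, and 1 and 1, passed an unadjusted p under 0.05. Atp6v0d2, an isoform known from osteoclasts and macrophages, rose by 1.66 in dual (adjusted p = 0.000951) and by 2.36 in triple against vehicle (adjusted p = 1.54e-05), from a vehicle median of 1.94 CPM. Atp6v0a1 fell by 0.70 in dual (adjusted p = 0.00381) and rose by 0.67 in triple against dual (adjusted p = 0.0128), and Atp6v1f fell by 0.44 in triple against vehicle (adjusted p = 0.00123).

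Of 18 genes of the TFEB family and nutrient control, 3 rose and 1 fell in dual against vehicle, 4 rose in triple against vehicle, and 4 rose and 1 fell in triple against dual. Their medians were -0.09, 0.06 and 0.19. At an unadjusted p under 0.05, triple against dual had 4 higher and 1 lower with the covariate, and 1 and 1 without the muscle-rich tumours. Rragd, a GTPase of the nutrient-sensing complex, rose by 1.74 in dual (adjusted p = 7.4e-05) and by 2.21 in triple against vehicle (adjusted p = 2.93e-06), from a vehicle median of 0.674 CPM to 2.55 and 2.82 CPM. Slc38a9, an arginine sensor of the lysosome, fell by 0.57 in dual (adjusted p = 0.000718). Tfe3, a close relative of Tfeb, rose by 0.58 in triple against dual (adjusted p = 0.00843), and Rraga fell by 0.20 (adjusted p = 0.0227).

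Of 6 genes that deliver enzymes to lysosomes, 2 rose and 2 fell in dual against vehicle, 3 rose and 2 fell in triple against vehicle, and 1 rose in triple against dual. Their medians were 0.12, 0.35 and 0.19. In triple against vehicle the counts were 2 and 0 with the covariate and 3 and 1 without the muscle-rich tumours, and against dual 1 gene with the covariate and 0 without the muscle-rich tumours passed an unadjusted p under 0.05. Igf2r, a mannose 6-phosphate receptor, fell by 0.63 in dual (adjusted p = 0.000108) and by 0.39 in triple against vehicle (adjusted p = 0.00502). Gnptab, a subunit of the enzyme that makes the mannose 6-phosphate tag, rose by 0.48 in dual (adjusted p = 8.85e-05). Sort1, a sorting receptor, rose by 1.85 in triple against vehicle (adjusted p = 4.78e-05) and by 1.47 against dual (adjusted p = 0.0057).

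Of 8 cathepsin inhibitors, 5 rose and 2 fell in dual against vehicle, 5 rose in triple against vehicle and 1 rose in triple against dual, with medians of 1.65, 2.42 and 0.69. At an unadjusted p under 0.05, 2 passed as higher in triple against dual under each muscle setting. Stfa2l1 rose by 3.60 in dual (adjusted p = 1.73e-06). Stfa2 was called higher in triple against vehicle (adjusted p = 4.84e-07), but 6 of 8 vehicle tumours held 0 reads of it and the vehicle group 2 reads in all, so its fitted difference depends on the read offset. The triple group held 146 reads of Stfa2, between 3 and 40 per tumour, a ratio of 66.3 per read sequenced (95% exact binomial interval 18.0 to 552.7, counting error only). Against dual Stfa2 rose by 1.38 (adjusted p = 0.0436). Stefin genes form a multigene family whose reads the counting could split, and Stfa2l1 is also 1 of the neutrophil markers. Cst6 fell by 0.84 in dual (adjusted p = 0.0458). Of 16 autophagy genes, 2 rose and 2 fell in dual against vehicle, 4 rose and 5 fell in triple against vehicle, and 3 rose and 1 fell in triple against dual. Their medians were -0.08, -0.02 and 0.07. In triple against vehicle the counts were 2 and 2 with the covariate and 2 and 4 without the muscle-rich tumours, and against dual 3 and 2 genes passed as higher at an unadjusted p under 0.05. Map1lc3a, an LC3 protein of autophagosomes, fell by 0.85 in dual (adjusted p = 0.000126) and by 1.03 in triple against vehicle (adjusted p = 9.52e-06). Sqstm1, a cargo receptor, rose by 0.40 in dual (adjusted p = 0.00111), and Optn, another, by 0.94 in triple against vehicle (adjusted p = 0.00175). In triple against dual Atg9a rose by 0.38 (adjusted p = 0.0252) and Gabarapl1 fell by 0.35 (adjusted p = 0.0155).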

How the data were processed

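Poly(A) RNA of 24 tumours was sequenced with a stranded ligation kit, per the labels' protocols. Tools listed in the submitters' processing notes are STAR 2.7.9a, featureCounts 1.6.0, FastQC 0.11.8, limma and edgeR, on build GRCm39; their order, their settings and the filter on low genes are not stated in these notes. The deposited table holds log2 values, which the values themselves show to be log2 CPM: with an offset of 0.5 reads over a scaled library size, whole reads were recovered for 100% of values within 0.01 reads. CPM printed here is 2 to the power of the deposited log2 value. limma 3.58.1 in R 4.3.3 was fitted to the log2 values of all 24 tumours with 1 mean per group and a variance trend, with Benjamini-Hochberg adjustment over 18723 genes. Lengths are union exons of GENCODE M21 (GRCm38), matched by gene ID without its version. Promoters are RefSeq windows of GRCm38.p6, matched by symbol, and gene positions are those of the deposited table.

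The members, lists and tests were chosen with earlier results of these data known. Full values are given for the 4 called members with the largest differences in each comparison, for those called in opposite directions in 2 comparisons, and for Tfeb, Grn, Lamp1, Ctsb and Ctsl. In each further list, the called genes with the largest rise and fall are named. Alternatives were other weights, scalings, filters, tests, a muscle score as covariate and leaving out tumours.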

Additional observations from a re-analysis of the deposited data

Results flagged for a closer look

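In 96 sets of 8 values (32 members in 3 groups), 5 had a single tumour separated from its nearest neighbour by more than Dixon's 95% critical value; chance gives about 1 in 20. Triple tumour T_352 accounted for 3 of them: 200.4 CPM for Gusb (next 136.6 CPM), 1276 CPM for Lamp1 (next 832.3 CPM) and 689.6 CPM for Lamp2 (next 408.1 CPM). Dual tumour D_373 was at 133.0 CPM for Ctsk, with the next dual tumour at 23.0 CPM. Vehicle tumour C_364 was at 14.01 CPM for Tfeb, with the next at 11.43 CPM.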

How the results depend on the processing

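No paired analysis was possible because each tumour number occurs once. The counts below are of the 32 members. With the muscle score as covariate, limma called 8 higher and 1 lower in triple against vehicle and 0 higher and 0 lower in triple against dual (15 and 1 at an unadjusted p under 0.05, lowest adjusted p 0.0979). Leaving out the 5 triple tumours with most muscle gave 8 and 5, and 0 and 0 (8 and 1 at an unadjusted p under 0.05, lowest adjusted p 0.405). In part this leaves fewer samples. The unadjusted counts have no count over all genes beside them. Members higher in triple against dual numbered 12 with only the 2 groups fitted, 5 by the exact Wilcoxon test and 10 at an adjusted p under 0.01, against 19. Calls higher over all genes also fell, from 2140 to 806 with only the 2 groups fitted and to 440 at an adjusted p under 0.01. By the exact Wilcoxon test they were fewer than under either of these settings. Members lower in triple against vehicle numbered 4 with tumour weights, and 1 with only the 2 groups fitted, with median-of-ratios scaling and at an adjusted p under 0.01, against 2. Over all genes 4852, 3870, 4126 and 2807 were called lower in the same order, against 4263. In dual against vehicle, quantile normalization gave 3 higher, and an adjusted p under 0.01 gave 3 higher and 6 lower. Over all genes quantile normalization gave 2370 higher, and the stricter threshold 1769 higher and 1685 lower, against 2803 and 2957. With only the 2 groups fitted, dual against vehicle gave 7 members higher and 13 lower, against 5 and 11. Over all genes that setting gave 3801 higher and 3937 lower. Leaving out 1 tumour gave 4 to 6 higher and 11 to 13 lower in dual against vehicle, 13 to 15 higher and 1 to 3 lower in triple against vehicle, and 17 to 24 higher and 1 to 1 lower in triple against dual. Over all 18723 genes the same fits called 2442 to 3351 higher and 2521 to 3444 lower in dual against vehicle. In triple against vehicle they called 3928 to 4696 higher and 3891 to 4524 lower. In triple against dual they called 1311 to 3598 higher and 1081 to 3075 lower. No called member changed sign under any alternative. Over all genes, the triple against dual calls of 2140 higher and 1867 lower became 1724 and 2976 with median centring and 1792 and 2414 with quantile normalization, which put the median of all genes at -0.10 and -0.08. The causes of these shifts were not tested. The filter on low genes cannot be varied below the listed genes.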
